A study of Mus musculus with 9 samples.

Results

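The genes described here encode the proton-secreting machinery of narrow and clear cells, the acidifying cells of the epididymal epithelium. They are 10 genes listed by name for their role: the carbonic anhydrases Car2 and Car12, the transcription factor Foxi1 and 7 subunits of the vacuolar H+-ATPase (V-ATPase), Atp6v1a, Atp6v1b1, Atp6v1b2, Atp6v1c2, Atp6v1g3, Atp6v0a4 and Atp6v0d2. Of the 10, 9 had a value in the files, out of 17148 genes with one, and all 9 passed the filter on low values that left 12099 genes for testing. Foxi1 was not listed in any library.

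Poly(A)-selected RNA was sequenced from the initial segment, the most proximal stretch of the epididymal duct, of C57BL/6 mice aged 4 weeks. The groups were a triple knockout of Mst1/2 and Yap (tKO), a double knockout of Mst1/2 (dKO) and wild type (WT, the control), with 3 libraries each. Mst1 and Mst2 (genes Stk4 and Stk3) are kinases of the Hippo pathway and Yap (gene Yap1) is the coactivator that they restrain. The tKO thus carries the deletions of the dKO as well. The sources used here give neither how the alleles were deleted nor in which cells. The labels do not say whether the libraries of a group are different animals, and the p-values given here thus cover only how far these libraries scatter. In RNA of a whole segment, fewer cells of a type and less RNA per cell cannot be told apart.

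In narrow and clear cells, cytosolic carbonic anhydrase II (Car2) hydrates carbon dioxide to a proton and bicarbonate, and V-ATPase in the apical membrane pumps the proton into the lumen, where low pH keeps sperm quiescent. The pump has a cytosolic V1 domain, which hydrolyses ATP through its A and B subunits, and a membrane V0 domain, which carries the protons. Several subunits exist in a form found in most cells and another, restricted form found in fewer cell types. Among these are acid-secreting cells of kidney and epididymis, where mouse Foxi1 is required for expression of some of the restricted forms. The restricted forms among the genes described are Atp6v1b1 (B1), Atp6v1c2 (C2), Atp6v1g3 (G3), Atp6v0a4 (a4) and Atp6v0d2 (d2). Atp6v1b2 (B2) and Atp6v1a (A) are present in most cells, and Atp6v1a served as the yardstick for the others.

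Promoter sequence is shown for 4 restricted or membrane-bound members whose levels are compared below, and for Atp6v1a. Of the 10 genes, 7 matched the RefSeq promoter table of build GRCm38.p6 (Car12, Foxi1, Atp6v1b1, Atp6v1c2, Atp6v1g3, Atp6v0a4 and Atp6v1a). The window was the 250 bases before the RefSeq start, shortened where the first exon in the files began further upstream. Each was searched on both strands for TGTTTA (reverse TAAACA), a core bound by forkhead factors such as Foxi1, for GGAATG (reverse CATTCC), the core bound by the TEAD partners of Yap, and for CCGGAA (reverse TTCCGG), the core bound by ETS factors. Capitals mark a match. Car12 (chr9:66713436-66713685, plus strand) held the forkhead core, with its first base 11 bases before the start. Atp6v1b1 (chr6:83742767-83742989, plus strand) held it 98 bases before. Atp6v1g3 (chr1:138273488-138273737, plus strand) held none of the 3. Atp6v0a4 (chr6:38124587-38124836, minus strand) held the TEAD core 56 bases before the start, and Atp6v1a (chr16:44139306-44139509, minus strand) the ETS core 62 bases before.
Car12: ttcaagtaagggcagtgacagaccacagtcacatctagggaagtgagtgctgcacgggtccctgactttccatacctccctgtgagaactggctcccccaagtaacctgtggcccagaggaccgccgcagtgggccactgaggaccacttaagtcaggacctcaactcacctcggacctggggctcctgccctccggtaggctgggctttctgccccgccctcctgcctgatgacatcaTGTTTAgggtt
Atp6v1b1: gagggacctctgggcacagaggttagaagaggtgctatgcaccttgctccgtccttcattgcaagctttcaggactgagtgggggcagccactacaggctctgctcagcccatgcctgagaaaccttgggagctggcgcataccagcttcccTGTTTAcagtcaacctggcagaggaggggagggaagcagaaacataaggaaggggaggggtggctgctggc
Atp6v1g3: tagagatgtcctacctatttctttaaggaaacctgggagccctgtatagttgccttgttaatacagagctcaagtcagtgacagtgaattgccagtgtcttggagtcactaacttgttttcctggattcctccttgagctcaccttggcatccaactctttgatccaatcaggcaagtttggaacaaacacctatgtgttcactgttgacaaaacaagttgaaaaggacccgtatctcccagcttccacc
Atp6v0a4: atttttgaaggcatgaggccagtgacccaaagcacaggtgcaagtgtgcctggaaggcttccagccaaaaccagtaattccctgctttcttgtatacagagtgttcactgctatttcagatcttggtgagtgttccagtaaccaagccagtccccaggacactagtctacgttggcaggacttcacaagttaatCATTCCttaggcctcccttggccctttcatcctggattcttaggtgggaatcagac
Atp6v1a: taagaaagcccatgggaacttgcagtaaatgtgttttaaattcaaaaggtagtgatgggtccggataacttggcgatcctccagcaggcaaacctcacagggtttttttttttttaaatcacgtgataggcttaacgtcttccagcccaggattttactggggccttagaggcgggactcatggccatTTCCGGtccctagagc
Of 32851 mouse promoter windows of 250 bases, 12% held the forkhead core, 12.6% the TEAD core and 12% the ETS core. In the windows not shown, Foxi1 held none of the 3 and Atp6v1c2 held the ETS core 144 bases before its start. A match is a description of the letters and not evidence of binding.

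The libraries were first checked against their labels. Yap1 stood at 8.33 to 8.86 FPKM (fragments per kilobase of transcript, scaled to library size, a level per length) in tKO, 25.2 to 27.9 in dKO and 23.2 to 26.9 in WT. Transcripts that skip an exon pair of Stk4 made up 24.5% to 58.7% in tKO, 59.4% to 68.6% in dKO and 0% in WT. Those that skip an exon pair of Stk3 made up 36.8% to 42.2% in tKO, 48.5% to 60.9% in dKO and 0% in WT. First-exon FPKM summed to 231670 to 253235 per library. The files hold no read counts, so depth is unknown and no counting interval could be given. Among 20 further genes of narrow, clear or kidney intercalated cells, 16 were listed. The anion exchangers Slc4a1, Slc4a9 and Slc26a4 and the receptor Oxgr1 were not listed, like Foxi1. The values below are those of the whole segment, and with Foxi1 not listed no value of it marks the narrow and clear cells here.

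Car2 was the only member called in any comparison. Car12 and Atp6v0d2 lay below WT in both knockouts without overlap and were not called. Car2 was lower in dKO than in WT, at 0.288 times the mean, and higher in tKO than in dKO, at 2.54 times the mean. None of the 7 V-ATPase subunits among the 10 genes passed the test in any comparison. Atp6v1a was the steadiest member, between 24.1 and 28.2 FPKM in all 9 libraries.

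**Figure D1:**
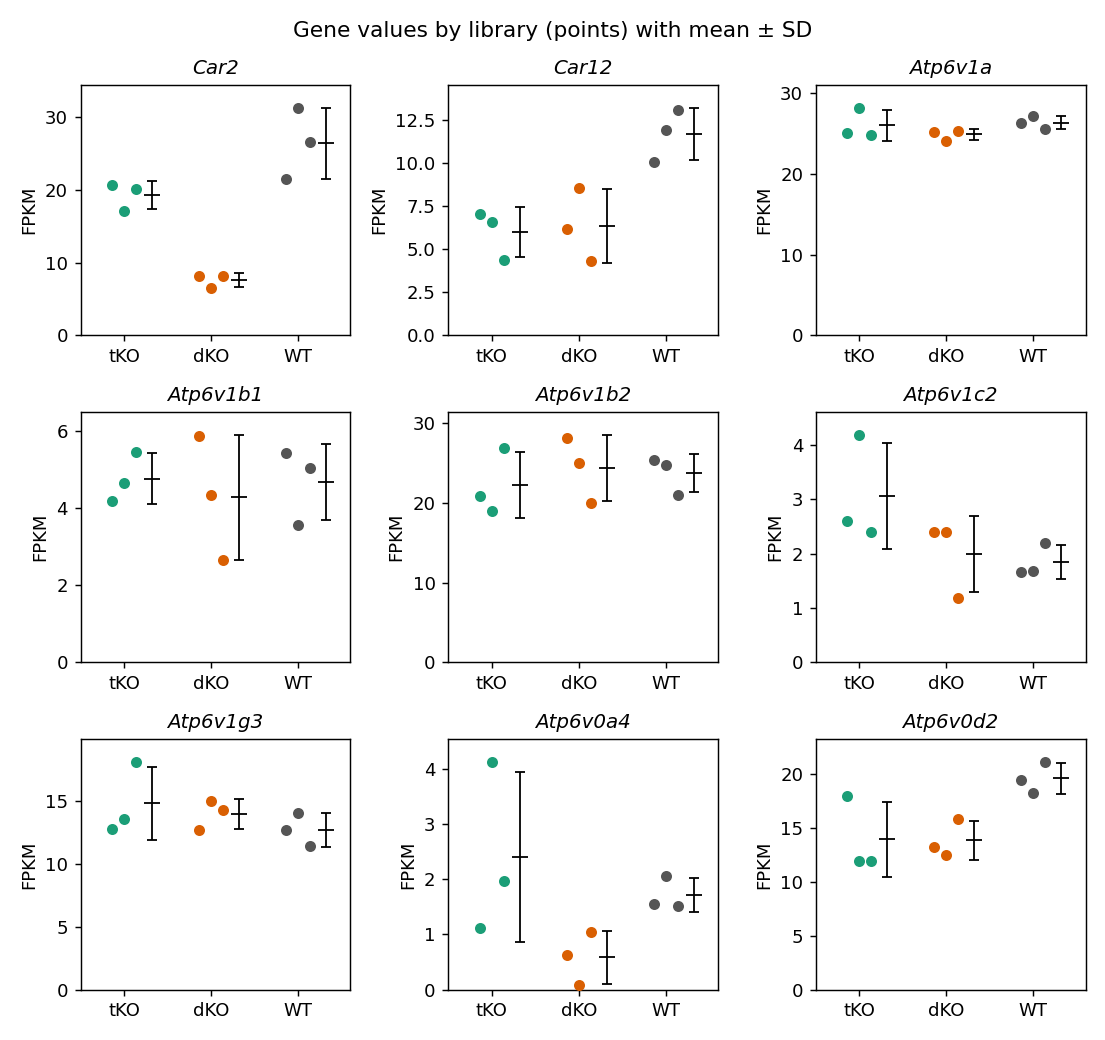
Level of each listed gene in FPKM (y axis, from 0) in the 3 libraries of tKO, dKO and WT (points), with the mean and SD of each group beside them. Car2 lies between 6.51 and 8.18 FPKM in dKO, below every tKO and WT library, while Atp6v1a stays between 24.1 and 28.2 FPKM throughout.

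By mean over the 9 libraries, the order of levels was Atp6v1a, Atp6v1b2, Car2, Atp6v0d2, Atp6v1g3, Car12, Atp6v1b1, Atp6v1c2 and Atp6v0a4, and the ranges of every pair of neighbours in this order overlapped. Means ran from 25.7 FPKM for Atp6v1a to 1.57 FPKM for Atp6v0a4. The mean of Atp6v1a was above that of 86.0% of the tested genes and that of Atp6v0a4 above 10.1%. The coefficient of variation over the 9 libraries was 4.94% for Atp6v1a, 14.1% for Atp6v1b2 and 13.9% for Atp6v1g3. It was 48.7% for Car2 and 73.2% for Atp6v0a4, the most variable of the 9.

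Car2 (ENSMUSG00000027562, chromosome 3, 14886273 to 14900770, plus strand, GRCm38) encodes carbonic anhydrase II. Its level was 20.6, 17.1 and 20.2 FPKM in tKO, 8.18, 6.51 and 8.14 FPKM in dKO, and 21.5, 31.3 and 26.6 FPKM in WT. The 3 dKO libraries lay below all others, and the tKO libraries lay between the dKO and the WT libraries without overlapping either. Means were 19.3 ± 1.91 in tKO, 7.61 ± 0.95 in dKO and 26.4 ± 4.89 in WT (SD, n = 3 libraries each). On the log2(FPKM + 1) scale Car2 fell by 1.66 in dKO versus WT (SE 0.15, 95% interval -2.01 to -1.32, limma with Benjamini-Hochberg adjustment over all tested genes, adjusted p 0.00094). Set against dKO, tKO was higher by 1.24 (SE 0.15, 0.90 to 1.59, limma adjusted p 0.0063). For tKO versus WT the difference was -0.42 (SE 0.15, -0.77 to -0.08), which did not pass adjustment (limma adjusted p 0.31). Both called differences were also called in each of the 20 alternative analyses. The first exon at 14886428 to 14886786 carried 98.1% to 100% of the first-exon FPKM of Car2 in every library, so the value came from 1 start.

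Relative to Atp6v1a in the same library, the dKO versus WT difference of Car2 was -1.58 (limma adjusted p 0.0022) and the tKO versus dKO difference was 1.18 (limma adjusted p 0.011). Relative to Atp6v1a the median of all genes in dKO versus WT was 0.11, against 0.03 without that scaling. The split of calls over all genes was 231 higher and 199 lower relative to Atp6v1a, against 177 higher and 284 lower without.

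**Figure D2:**
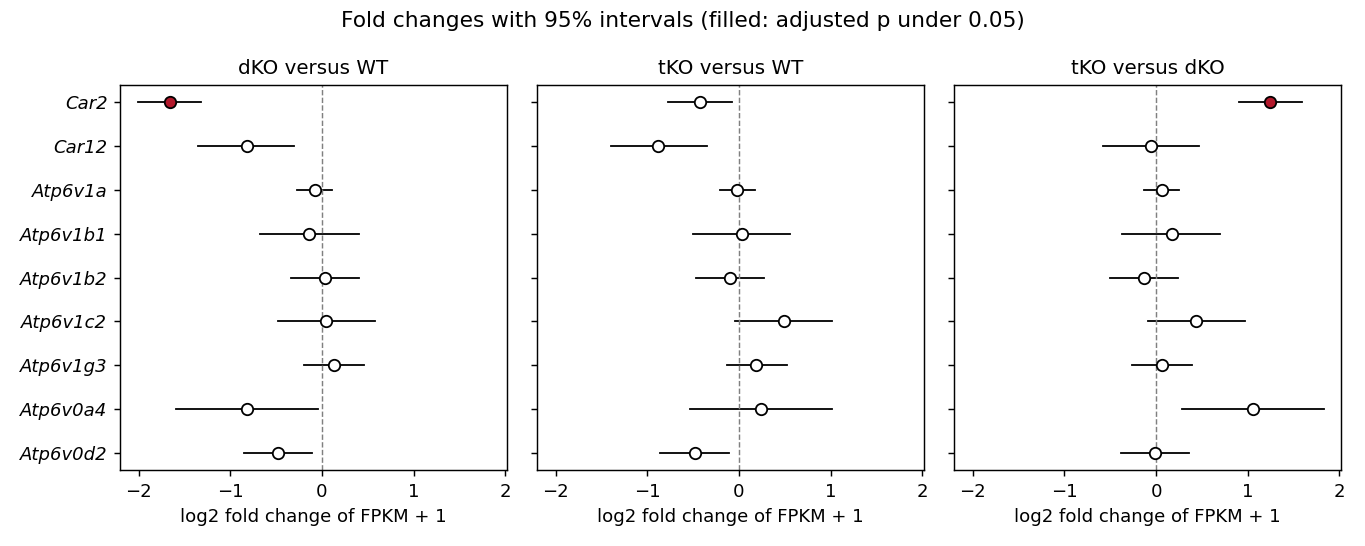
Log2 fold change of FPKM + 1 (x axis) with its 95% interval for each listed gene in dKO versus WT, tKO versus WT and tKO versus dKO; filled points have an adjusted p under 0.05 and the dashed line marks no difference. Car2 alone is filled, at -1.66 in dKO versus WT and at 1.24 in tKO versus dKO.

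Car12 (ENSMUSG00000032373, chromosome 9, 66713686 to 66766845, plus strand) encodes a membrane-bound carbonic anhydrase with an extracellular active site. It had 7.04, 6.61 and 4.37 FPKM in tKO, 6.19, 8.58 and 4.31 FPKM in dKO, and 10.1, 12.0 and 13.1 FPKM in WT. All tKO and all dKO libraries lay below all WT libraries, and tKO and dKO overlapped. The log2 difference was -0.82 in dKO versus WT (SE 0.23, 95% interval -1.35 to -0.30) and -0.88 in tKO versus WT (SE 0.23, -1.40 to -0.35). Neither passed the test (limma adjusted p 0.097 and 0.18). These comparisons share the WT libraries. Between tKO and dKO it was -0.05 (-0.58 to 0.47, limma adjusted p 0.94). Its value came from the last exon at 66764288 to 66766845, which held all of the last-exon FPKM. The first exon that follows the promoter above held 72.6% to 100% of the first-exon FPKM.

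Within the V1 domain, Atp6v1a (ENSMUSG00000052459, chromosome 16, 44085402 to 44139705, minus strand), the catalytic A subunit, had 25.1, 28.2 and 24.8 FPKM in tKO, 25.2, 24.1 and 25.3 FPKM in dKO, and 26.3, 27.2 and 25.5 FPKM in WT. The dKO libraries lay just below the WT libraries, by -0.08 on the log2 scale with an interval of -0.27 to 0.11 (limma adjusted p 0.68). The level came from a pair of overlapping first exons, which held 29.5% to 61.7% and 38.0% to 70.1% of it. Their sum and the last exon, at 23.9 to 27.9 FPKM, both varied little. Atp6v1b2 (ENSMUSG00000006273, chromosome 8, 69088646 to 69113711, plus strand), the widespread form of the ATP-binding B subunit, had 20.9, 18.9 and 26.9 FPKM in tKO, 28.2, 25.0 and 20.0 FPKM in dKO, and 25.3, 24.8 and 20.96 FPKM in WT. All 3 groups overlapped. Its log2 difference lay at 0.03 in dKO versus WT (-0.34 to 0.40), -0.10 in tKO versus WT (-0.47 to 0.27) and -0.13 in tKO versus dKO (-0.50 to 0.24).

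Atp6v1b1 (ENSMUSG00000006269, chromosome 6, 83742990 to 83758855, plus strand) encodes B1, the form that marks proton-secreting cells and whose human mutations cause renal tubular acidosis. It had 4.19, 4.67 and 5.47 FPKM in tKO, 5.88, 4.34 and 2.65 FPKM in dKO, and 5.44, 3.58 and 5.05 FPKM in WT. The groups overlapped fully, and within dKO the highest library had 2.22 times the lowest, the full range of the gene. The log2 difference was -0.14 in dKO versus WT (95% interval -0.67 to 0.40), 0.03 in tKO versus WT (-0.50 to 0.56) and 0.17 in tKO versus dKO (-0.37 to 0.70), with limma adjusted p of 0.82, 0.97 and 0.78. These intervals give the changes that 3 libraries a group leave possible, and they are not a limit of detection. The first exon that follows the promoter above, at 83742990 to 83743202, held 72.0% to 90.7% of its value. The direction in tKO versus WT turned to -0.01 when libraries were scaled to a common median and to -0.06 under quantile normalization.

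The share of B1 in the sum of B1 and B2 gives the balance of both forms in 1 value per library. It was 16.7%, 19.8% and 16.9% in tKO, 17.3%, 14.8% and 11.7% in dKO, and 17.7%, 12.6% and 19.4% in WT. Means were 17.8% ± 1.73 in tKO, 14.6% ± 2.78 in dKO and 16.6% ± 3.54 in WT (SD, n = 3 each). The difference was -1.98 percentage points in dKO versus WT (exact two-sided permutation p 0.5), 1.22 in tKO versus WT (0.8, exact) and 3.19 in tKO versus dKO (0.3, exact). With 3 libraries against 3 the smallest p this test allows is 0.1.

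Atp6v1c2 (ENSMUSG00000020566, chromosome 12, 17284721 to 17329359, minus strand), the restricted form of the C subunit that joins V1 to V0, had 2.599, 4.18 and 2.39 FPKM in tKO, 2.41, 2.40 and 1.18 FPKM in dKO, and 1.66, 1.68 and 2.21 FPKM in WT. The tKO libraries lay above the WT libraries, by 0.49 on the log2 scale (SE 0.23, -0.04 to 1.02, limma adjusted p 0.40). In dKO versus WT the difference was 0.05 (-0.48 to 0.58) and in tKO versus dKO 0.44 (-0.09 to 0.97), and neither was called. Without tKO replicate 2 the tKO versus WT difference was 0.30. Atp6v1g3 (ENSMUSG00000026394, chromosome 1, 138273738 to 138289462, plus strand), the restricted G subunit of the peripheral stalk, had 12.8, 13.6 and 18.1 FPKM in tKO, 12.7, 15.0 and 14.3 FPKM in dKO, and 12.7, 14.1 and 11.4 FPKM in WT. The groups overlapped, with log2 differences of 0.13 in dKO versus WT (-0.19 to 0.46), 0.19 in tKO versus WT (-0.13 to 0.52) and 0.06 in tKO versus dKO (-0.26 to 0.39). The first was 0.06 without WT replicate 3 and the second 0.05 without tKO replicate 3. A single first exon, at 138273738 to 138273847, carried the whole of its first-exon value, so G3 had the level of 1 transcript start.

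Within the V0 domain, Atp6v0d2 (ENSMUSG00000028238, chromosome 4, 19876841 to 19922605, minus strand), the restricted d subunit at the foot of the central stalk, had 18.0, 11.9 and 12.0 FPKM in tKO, 13.2, 12.5 and 15.9 FPKM in dKO, and 19.5, 18.3 and 21.2 FPKM in WT. Every tKO and dKO library lay below every WT library, with tKO replicate 1 close to the lowest WT library. The difference was -0.48 in dKO versus WT (SE 0.16, 95% interval -0.85 to -0.11) and -0.48 in tKO versus WT (SE 0.16, -0.86 to -0.11). Neither passed the test (limma adjusted p 0.16 and 0.29). Between tKO and dKO it was -0.01 (-0.38 to 0.36). A single first exon, at 19922368 to 19922605, held its whole value. Relative to Atp6v1a the differences from WT were -0.40 in dKO and -0.47 in tKO (limma adjusted p 0.26 and 0.33).

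Atp6v0a4 (ENSMUSG00000038600, chromosome 6, 38048483 to 38124586, minus strand) encodes a4, the restricted form of the membrane subunit through which protons pass. It had 1.12, 4.12 and 1.97 FPKM in tKO, 0.622, 0.0836 and 1.04 FPKM in dKO, and 1.54, 2.07 and 1.52 FPKM in WT. The dKO libraries lay below all tKO and all WT libraries, and tKO overlapped WT. The difference was -0.82 in dKO versus WT (SE 0.34, -1.59 to -0.04, limma adjusted p 0.25) and 1.06 in tKO versus dKO (SE 0.34, 0.28 to 1.83, limma adjusted p 0.16). At this low level the size depends on the pseudocount, at -1.75 in dKO versus WT and 2.05 in tKO versus dKO with a pseudocount of 0.1, and at -0.27 and 0.39 in the same comparisons with 5. None of these was called. In tKO versus WT it was 0.24 (-0.53 to 1.01) with all libraries and -0.10 without tKO replicate 2. Its events sit in a locus that the files name after a neighbouring gene, and were placed here by their splice sites. Its value was spread over 3 first exons, and the annotated first exon that follows the promoter above, at 38124328 to 38124586, held 0 to 1.27 FPKM. The last exon had 0.021 to 0.12 FPKM, so the level of Atp6v0a4 rests on first exons alone.

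Counted over the listed genes, 1 of 9 was called lower in dKO versus WT, where 2.35% of all tested genes were called lower and 1.46% higher (3.81% in either direction). In tKO versus WT none was called, where 0.165% of all genes were (0.0827% higher and 0.0827% lower), and 1603 of the 12099 had an unadjusted limma p under 0.05. In that comparison 3 of the 9 had such a p, Car2 (0.022), Car12 (0.0045) and Atp6v0d2 (0.016). Of the 9, 1 was called higher in tKO versus dKO, where 1.24% of all genes were called higher and 0.868% lower (2.11% in either direction). Relative to Atp6v1a the same counts came out at 1, 0 and 1 of the other 8, with 3.55%, 0.289% and 1.79% of all genes called in the 3 comparisons.

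Groups that did not overlap were more frequent than calls. In dKO versus WT all dKO libraries lay below all WT libraries for 5 of the 9 (Car2, Car12, Atp6v0d2, Atp6v0a4 and Atp6v1a), as for 12.2% of all genes, with no overlap in either direction for 27.5% of them. This held for 3 in tKO versus WT (Car2, Car12 and Atp6v0d2), as for 7.69% of all genes, and Atp6v1c2 lay above, as did 11.1% of all genes. Car2 and Atp6v0a4 lay above in tKO versus dKO, as did 12.1% of all genes. The median log2 difference of the 9 was -0.14 in dKO versus WT, -0.02 in tKO versus WT and 0.06 in tKO versus dKO, beside 0.03, 0.04 and 0.02 over all genes. The first and second comparisons share the WT libraries, and each shares a knockout group with the third.

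The restricted form made up a minor part of each subunit. On average C2 held 12.8% of the C subunit in tKO, 10.2% in dKO and 7.66% in WT. G3 held 13.9% of the G subunits in tKO, 12.1% in dKO and 9.47% in WT. For d2 it was 27.4% of the d subunits in tKO, 28.5% in dKO and 30.0% in WT. The d2 shares of all 3 groups overlapped. Atp6v0d1, the widespread d form, had 41.5, 36.0 and 32.4 FPKM in tKO, 33.7, 35.7 and 34.8 FPKM in dKO, and 47.9, 44.8 and 44.9 FPKM in WT, which was not called (limma adjusted p 0.075 in dKO versus WT and 0.25 in tKO versus WT). The a4 share of the a subunits was 6.79% in tKO, 1.51% in dKO and 4.65% in WT on average, with the 3 dKO libraries below the rest. Of these shares only that of B1 was tested.

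**Figure D3:**
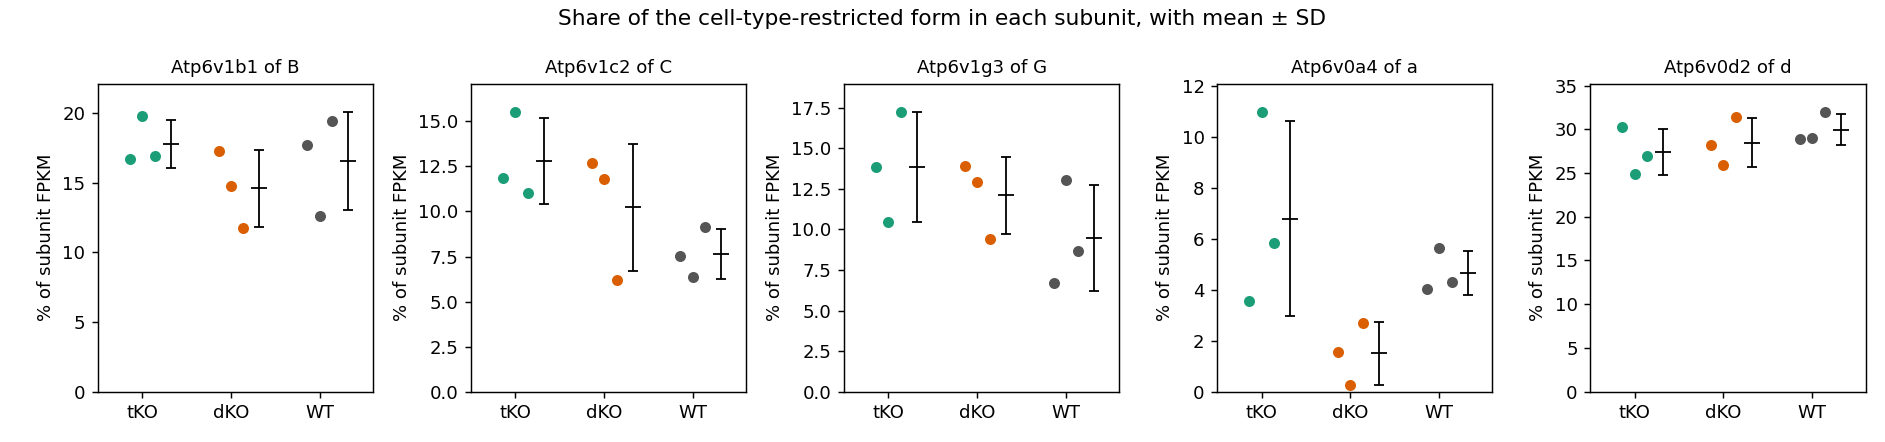
Share of the restricted form in the summed FPKM of its subunit (y axis, percent, from 0) in the 3 libraries of tKO, dKO and WT, with mean and SD. The a4 share of the dKO libraries lies below the others, at 1.51% on average. The C2 share of the tKO libraries lies above that of the WT libraries, and the B1, G3 and d2 shares overlap in all 3 groups.

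Of 16 other V-ATPase subunits 15 were listed and tested. In dKO versus WT 1 of the 15 was called higher and none lower, in tKO versus WT none was called (1 had an unadjusted limma p under 0.05), and in tKO versus dKO 1 was called lower and none higher. The gene was Atp6v0e2 each time, a form of the small e subunit of V0. It had 16.4, 15.5 and 16.5 FPKM in tKO, 37.1, 43.6 and 43.8 FPKM in dKO, and 25.9, 16.8 and 16.0 FPKM in WT. All dKO libraries lay above the others. On the log2 scale Atp6v0e2 rose by 1.07 in dKO versus WT, with an SE of 0.17 (limma adjusted p 0.015). It fell by 1.31 in tKO versus dKO, with an SE of 0.17 (limma adjusted p 0.0082). Its rise in dKO was no longer called when WT replicate 2, WT replicate 3, dKO replicate 2 or dKO replicate 3 was left out, at an adjusted p of up to 0.068. The median of the 15 was -0.19 in dKO versus WT, -0.19 in tKO versus WT and 0.00 in tKO versus dKO. In dKO versus WT 10 of the 15 differences were negative. An unadjusted limma p under 0.05 was found for 5 of the 15, beside 2239 of the 12099 tested genes. Besides Atp6v0e2 the 5 were Atp6v0d1 (-0.39), Atp6v1e1 (-0.36), Atp6v1c1 (-0.34) and Atp6v1g2 (-0.56), all lower in dKO and not called. In tKO versus WT 12 of the 15 were negative. An unadjusted limma p under 0.05 was found for 1603 of the 12099 tested genes in that comparison. In tKO versus dKO 4 of the 15 had such a p, beside 2018 of the 12099.

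Of 12 assembly and accessory proteins 11 were tested, and 1 was called, lower in dKO versus WT. This was Oxr1, a TLDc-domain protein of a family that acts on V-ATPase, which had 48.4, 50.6 and 42.1 FPKM in tKO, 35.1, 36.2 and 31.9 FPKM in dKO, and 48.0, 60.5 and 61.3 FPKM in WT. It fell by 0.69 in dKO versus WT (SE 0.12, limma adjusted p 0.020), with dKO below all other libraries. Leaving out WT replicate 2, WT replicate 3 or any 1 dKO library ended the call, at an adjusted p of up to 0.089. The median of the 11 was 0.02 in that comparison.

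Among 14 other carbonic anhydrases 8 were listed and 5 tested, and 1 of the 5 was called, in dKO versus WT. Car7, a cytosolic carbonic anhydrase like Car2, had 9.51, 7.71 and 8.49 FPKM in tKO, 5.54, 4.54 and 6.71 FPKM in dKO, and 15.2, 20.99 and 18.3 FPKM in WT. The 3 groups did not overlap, with dKO lowest and WT highest, the same order as for Car2. Car7 fell by 1.54 in dKO versus WT (SE 0.16, limma adjusted p 0.0020), a call that stood in all 20 alternatives. Its tKO versus WT difference of -0.99 (limma adjusted p 0.061) and its tKO versus dKO difference of 0.55 (limma adjusted p 0.13) were not called. The other 4 tested, Car5b, Car3, Car14 and Car11, were not called in any comparison. Car3 ranged from 0.50 to 27.9 FPKM, with the highest value in tKO replicate 2.

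Of 22 acid-base transporters and their partners 18 were listed and 15 tested, and 0 were called in any comparison by limma. An unadjusted limma p under 0.05 was found for 2 of the 15 in dKO versus WT, 4 in tKO versus WT and 7 in tKO versus dKO. Over the 12099 tested genes the counts were 2239, 1603 and 2018 in the same comparisons. Those with high mean levels included Slc9a3r1, a scaffold of membrane transporters, the sodium bicarbonate cotransporter Slc4a4 and the anion exchanger Slc4a2. Slc4a4 had 16.1, 19.2 and 18.9 FPKM in tKO, 15.3, 14.9 and 12.7 FPKM in dKO, and 18.2, 18.7 and 20.0 FPKM in WT. Its dKO libraries lay below the others (log2 difference -0.39 in dKO versus WT, limma adjusted p 0.098). The median of the 15 was -0.14 in dKO versus WT, 0.25 in tKO versus WT and 0.41 in tKO versus dKO.

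**Figure D4:**
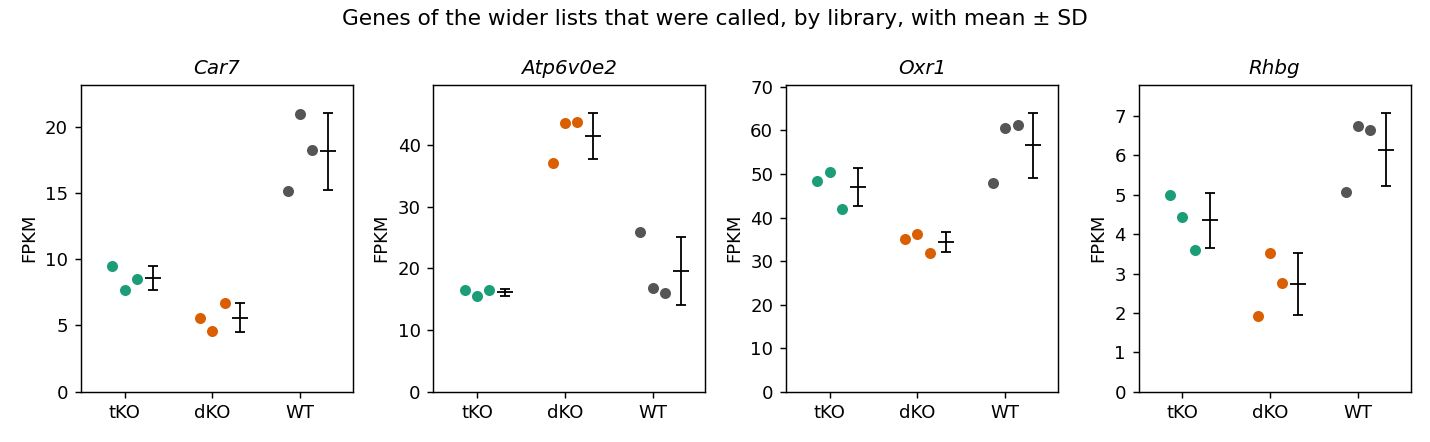
Level in FPKM (y axis, from 0) of Car7, Atp6v0e2, Oxr1 and Rhbg, the genes called in the lists around proton secretion, in the 3 libraries of tKO, dKO and WT, with mean and SD. The dKO libraries lie lowest for Car7, Oxr1 and Rhbg and highest for Atp6v0e2, where they reach 37.1 to 43.8 FPKM.

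Of the 20 other genes of narrow, clear or intercalated cells 11 were tested. Rhbg, an ammonia transporter, was the gene called, lower in dKO versus WT. It had 5.0, 4.44 and 3.60 FPKM in tKO, 1.93, 3.52 and 2.76 FPKM in dKO, and 5.07, 6.74 and 6.63 FPKM in WT. Rhbg fell by 0.95 (SE 0.19, limma adjusted p 0.031). The call was lost with no filter on low values, in a fit of the compared groups only, with the replicate number as a block, and on leaving out WT replicate 2, WT replicate 3, dKO replicate 1 or dKO replicate 3, at an adjusted p of up to 0.12. Its relative Rhcg, an ammonia transporter of the apical membrane, held the most FPKM of the list and ranged from 13.9 to 66.2 FPKM within WT alone. An unadjusted limma p under 0.05 was found for 5 of the 11 in dKO versus WT, as for 2239 of the 12099 tested genes. Of the 5, Tfcp2l1 (log2 difference 0.49), Foxp1 (0.68) and Kit (0.53) were higher in dKO and not called. The others, Rhbg and Cftr, were lower. Cftr differed by -1.48 (limma adjusted p 0.14), was not called and had 0 FPKM in dKO replicate 3. In tKO versus WT 2 of the 11 had such a p, and in tKO versus dKO 3, beside 1603 and 2018 of the 12099 tested genes. The median log2 difference of the 11 was 0.09 in dKO versus WT, -0.08 in tKO versus WT and 0.13 in tKO versus dKO. The summed level of the 16 listed was 79.3 to 90.9 FPKM in tKO, 87.5 to 98.1 FPKM in dKO and 62.4 to 116 FPKM in WT.

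Markers of other cells moved between groups as well. Of 10 principal cell genes of the initial segment, all listed, 4 were called lower in dKO versus WT and higher in tKO versus dKO (Lcn8, Rnase10, Cst8 and Etv5), with medians of -1.28 and 0.92. The sum of the 10 was 6683 to 9300 FPKM in tKO, 3086 to 4962 FPKM in dKO and 10300 to 10634 FPKM in WT. These ranges did not overlap. Lcn8, Cst11 and Rnase10 made up most of the sum, with WT means of 4514, 2572 and 2117 FPKM. All 10 differences were negative in dKO versus WT, but Cst11, Ros1 and Rnase9 overlapped in every comparison. Aqp9 was higher in all tKO libraries than in all WT and dKO libraries. The sum has the order found for Car2 and Car7, and the part of principal cells in those results was not tested. Basal cell genes, 6 of 6 listed, had no limma call and 2 to 4 unadjusted p-values under 0.05 in a comparison. Over the 12099 tested genes such p-values numbered 2239 in dKO versus WT, 1603 in tKO versus WT and 2018 in tKO versus dKO. The basal cell genes summed to 97.0 to 134 FPKM in tKO, 129 to 140 FPKM in dKO and 160 to 180 FPKM in WT. Smooth muscle (6 of 6), endothelium (6 of 6) and fibroblasts (4 of 4) each had 1 gene called lower in dKO versus WT, namely Actg2, Tie1 and Pdgfra. Actg2 and Tie1 were called higher in tKO versus dKO. The Tie1 calls were lost on leaving out any 1 of the 9 libraries in tKO versus dKO, and any 1 WT or dKO library in dKO versus WT. The Actg2 calls were lost without WT replicate 3 or any 1 dKO library in both comparisons, without WT replicate 2 in dKO versus WT, and without tKO replicate 1 or 2 in tKO versus dKO. The Pdgfra call was lost without replicate 2 or 3 of WT or dKO. With the replicate number as a block, the Tie1 calls, the Pdgfra call and the Actg2 call in tKO versus dKO were lost. Over all alternatives the limma adjusted p reached 0.071 for Actg2, 0.097 for Tie1 and 0.096 for Pdgfra in dKO versus WT, and 0.11 for Actg2 and 0.1 for Tie1 in tKO versus dKO. Endothelial sums were 36.9 to 43.3 FPKM in tKO, 26.2 to 31.5 FPKM in dKO and 35.8 to 36.9 FPKM in WT. Among 8 listed of 9 macrophage and dendritic cell genes and among 3 osteoclast-type genes limma called none, with at most 1 unadjusted p under 0.05 in a comparison.

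Library tKO replicate 2 stood apart in several lists. Ciliated cell genes of the efferent ducts, 4 of 4 listed, summed to 26.5 to 67.4 FPKM in tKO, 19.0 to 30.1 FPKM in dKO and 19.0 to 21.3 FPKM in WT, with replicate 2 at the top of tKO and no gene called (limma, at most 3 of the 4 with an unadjusted p under 0.05). Fibroblast genes summed to 499 to 874 FPKM in tKO, 410 to 589 FPKM in dKO and 521 to 536 FPKM in WT, again with that library at the top. The germ cell gene Ddx4 had 7.29 FPKM there and at most 1.30 FPKM elsewhere, while Prm1 and Tnp1 were not listed. Among the listed genes, Atp6v1c2, Atp6v0a4 and Atp6v1a were highest in this library. Without it Car2 still differed by 1.32 in tKO versus dKO (limma adjusted p 0.019), Atp6v0a4 by 0.71 (0.33) and Atp6v1c2 by 0.25 (0.66), and Car2 by -0.34 in tKO versus WT (0.57).

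The genes whose level followed Car2 most closely over the 9 libraries were Lcn8, Gcnt4, 9230110F15Rik, Impa2 and Ddit4l, by Pearson's r of log2(FPKM + 1). For Lcn8, a lipocalin secreted by principal cells, r was 0.995, and the libraries had the same rank order (Spearman's rho 1, n = 9 libraries). Lcn8 had 3019, 2365 and 2669 FPKM in tKO, 921, 710 and 795 FPKM in dKO, and 3675, 5470 and 4396 FPKM in WT. For the other 4, r was 0.981 to 0.990. These 5 are the highest of all tested genes by selection and the libraries of a group share a genotype, so r is a description only. For Atp6v0d2 the closest were Pygl (0.967), Bahd1 (0.967), Arhgap8 (0.963), Agr2 (0.947) and Hmga1b (0.947). For Atp6v1b1 they were Fam160a2 (0.958), Hook2 (0.932), Trmt1 (0.904), Tstd2 (0.904) and Appl2 (0.902). None of these 15 genes belongs to the V-ATPase or to the carbonic anhydrases.

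**Figure D5:**
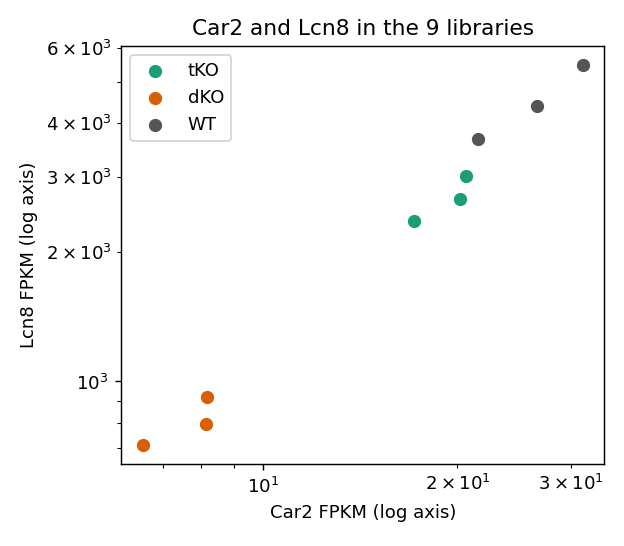
Lcn8 FPKM (y axis, log scale) against Car2 FPKM (x axis, log scale), 1 point per library, coloured by tKO, dKO and WT. The 9 libraries fall in the same rank order on both axes, with the dKO libraries at the low end (6.51 to 8.18 FPKM of Car2) and the WT libraries at the high end.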

How the data were processed

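Poly(A)-selected RNA of 9 libraries was analysed in 3 groups of 3. The authors deposited FPKM per transcript event (first exons, last exons, exon skips and others), per the file headers. Events at 0 are not listed. Per the submitters' processing notes, bcl2fastq 2.17.1.14 and DESeq were used, at steps that are not stated. For the aligner and build, a name is not given in the sources used here. Event ends were compared with GENCODE release M21 (GRCm38): an annotated splice site matched the end of 81.5% of 36623 first-exon and of 82.4% of 21612 last-exon events. Other events went to the gene the files name if within 5000 bases. At least 97.4% of first-exon and 97.1% of last-exon FPKM per library was placed.

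Each gene took the summed FPKM of its first exons, or of its last exons if that total was larger, which gave 12620 genes by first exons and 4528 by last exons. A gene entered the test if 3 or more libraries reached 1 FPKM. The test was limma 3.58.1 in R 4.3.3, fitted once to log2(FPKM + 1) of the 9 libraries, with a trend of the variance on the mean. The pseudocount of 1 understates the fold changes of low genes, and reads of near-identical paralogs could not be told apart. Benjamini-Hochberg adjustment ran over the whole table of tested genes, and a gene was called at an adjusted p under 0.05. The same fit was run on differences from Atp6v1a. Shares of B1 were compared by exact permutation with SciPy 1.17.1. On simulated data limma recovered 64 of 100 changes of size 1 (log2) and 97 of 100 of size 2 in dKO versus WT. It recovered 71 and 96 in tKO versus WT, and 62 and 90 in tKO versus dKO. In the 3 comparisons 7, 10 and 9 unchanged genes were called. The noise was normal and the changed genes were drawn only from those above a minimum mean level. These figures thus do not cover the lowest genes, such as Atp6v0a4.

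The genes and lists were chosen with earlier results of these data known. All 10 listed genes and the targeted genes are named. Of each list of V-ATPase subunits, accessory proteins, carbonic anhydrases and acid-base transporters, called members are named, or else up to 4 with the highest mean. In these lists 1 gene that this rule would name is not reported here. Of the cell type marker lists, called members are named. For Car2, Atp6v1b1 and Atp6v0d2 the 5 genes with the highest correlation are named. Other named genes (such as Car3, Rhcg, Ddx4 and Atp6v0d1) were added after their values were seen. In all, 20 alternatives were run, 9 of them leaving out 1 library each.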

Additional observations from a re-analysis of the deposited data

How the results depend on the processing

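The calls of Car2 in dKO versus WT and in tKO versus dKO held in all 20 alternatives, with log2 differences of -1.80 to -1.31 (limma adjusted p 0.00079 to 0.0094) and 0.95 to 1.34 (0.0057 to 0.032), and no other of the 10 genes was called in any of them, also relative to Atp6v1a. The low genes Atp6v1b1, Atp6v1c2 and Atp6v0a4 have no value under some alternatives, because the filter of 5 FPKM or the last-exon sums leave them out. In the wider lists, the calls of Car7, Lcn8, Rnase10, Cst8 and Etv5, and that of Atp6v0e2 in tKO versus dKO, held in every alternative that tested these genes. Tie1 in tKO versus dKO was also lost with no filter on low values, first-exon sums, quantile normalization and a fit of the 2 compared groups, the last of which ended its call in dKO versus WT too. Actg2 in tKO versus dKO was also lost with no filter. The number of all genes called moved more. It was 461 in dKO versus WT and 235 with the replicate number as a block. In tKO versus WT it was 20, and 31 with no filter on low values, 36 with quantile normalization, 9 in a fit of the 2 compared groups and 5 with the replicate block. In tKO versus dKO it was 255, and 163 in a fit of the 2 compared groups and 145 with the replicate block. Residuals of libraries with the same number correlated at -0.106 to 0.00968, beside -0.0825 to 0.121 for libraries with different numbers. With 3 libraries a group these values cannot show whether libraries of the same number share a batch, and the labels do not say. Leaving out 1 library gave 104 to 454, 7 to 153 and 94 to 320 calls in dKO versus WT, tKO versus WT and tKO versus dKO. The extremes came without WT replicate 2 (104 and 7), tKO replicate 1 (153 and 320) and tKO replicate 2 (94). The cause was not tested.

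With last-exon sums, where Atp6v1b1 is near 0, the B1 share differed by 0.00796 percentage points in dKO versus WT, -0.00531 in tKO versus WT and -0.0133 in tKO versus dKO. Without 1 library it differed by -0.765 to 2.64 in tKO versus WT. Small differences that were not called changed sign. Atp6v1b1 in tKO versus WT was -0.01 with median scaling and -0.06 with quantile normalization, and -0.05 relative to Atp6v1a with quantile normalization. Atp6v1g3 relative to Atp6v1a in tKO versus dKO was -7.3e-05 with a pseudocount of 5 and -0.02 with quantile normalization.

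Leaving out 1 library gave these ranges of log2 differences across 0. In dKO versus WT they were -0.35 to 0.11 for Atp6v1b1, -0.08 to 0.16 for Atp6v1b2 and -0.06 to 0.26 for Atp6v1c2. In tKO versus WT they were -0.12 to 0.13 for Atp6v1b1, -0.24 to 0.0067 for Atp6v1b2, -0.10 to 0.53 for Atp6v0a4 and -0.08 to 0.01 for Atp6v1a. In tKO versus dKO they were -0.27 to 0.16 for Car12, -0.08 to 0.38 for Atp6v1b1, -0.19 to 0.09 for Atp6v0d2 and -0.08 to 0.16 for Atp6v1g3. Relative to Atp6v1a they were -0.26 to 0.20 for Atp6v1b1 and -0.0016 to 0.35 for Atp6v1c2 in dKO versus WT. In tKO versus WT they were -0.12 to 0.15 for Atp6v1b1, -0.25 to 0.08 for Atp6v1b2 and -0.03 to 0.53 for Atp6v0a4, also relative to Atp6v1a. In tKO versus dKO, on the same scale, they were -0.34 to 0.12 for Car12, -0.15 to 0.31 for Atp6v1b1, -0.27 to 0.08 for Atp6v0d2 and -0.17 to 0.11 for Atp6v1g3. The files hold no counts, so depth sets no stated limit, and the intervals over libraries are the measure of precision.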
